A study of Mus musculus with 2 samples.

Results

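Dermal-like mesenchymal cells were a small non-epithelial fraction of the newborn epidermis of Chrm3 knockout (KO) mice. Their members were chosen by the UMIs of 5 genes in each cell: a cell needed at least 5 UMIs of Col3a1, Ebf1 and Rspo3 together, at least 2 of these 3 genes detected, and at most 20 UMIs of Krt14 and Krt5 together. A UMI (unique molecular identifier) marks a single captured transcript, so that PCR copies are counted once. Of the 19488 cells that passed the filter (from 900 to 7700 genes, mitochondrial UMIs below 10%), 89 were members. KO mouse 1 gave 33 of 7607 cells (0.434%, exact 95% binomial interval 0.299 to 0.609) and KO mouse 2 gave 56 of 11881 (0.471%, 0.356 to 0.612), a mean of 0.453% ± 0.0265 (SD, n = 2 mice). The intervals of the mice overlapped.

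The samples were single-cell RNA libraries from the epidermis of 2 male C57BL/6J mice at postnatal day 0, 1 library per mouse, both lacking Chrm3, which encodes the M3 muscarinic acetylcholine receptor. By the study's methods, dead cells had been removed from a filtered suspension of epidermis, which an overnight buffer step had freed from the dermis. All animals used here carried the KO, wild-type libraries were not analysed here, and no effect of the genotype was tested. The libraries held 10816 barcodes and 109756784 UMIs (KO mouse 1) and 15867 barcodes and 166441732 UMIs (KO mouse 2). The libraries shared 127 barcodes, 34 of them among the cells that passed, and 1 member shared its barcode with a cell of the other library that was no member.

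Dermal mesenchyme makes the collagen matrix under the epidermis. At sites of hair formation, some of its cells gather below the epithelial placode as a dermal condensate, which later sits at the base of the follicle as the dermal papilla. Dermal papilla cells send signals of the Wnt, R-spondin, Bmp and Fgf families to the hair matrix. Ebf1 encodes a helix-loop-helix transcription factor, Rspo3 a secreted amplifier of Wnt signals and Col3a1 a fibrillar collagen. Chrm2 encodes the M2 muscarinic receptor, a relative of the deleted M3 receptor.

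Promoter sequence is shown for 3 genes on which the description of the members turned: Ebf1 of the rule, Chrm2 and the mesenchymal factor Twist1. Each window is the 250 bases before a transcription start of RefSeq on GRCm38.p6, plus strand, 5′ to 3′, with CG dinucleotides in capitals. The windows are chr11:44617850-44618099 (Ebf1, the first of 2 windows), chr6:36387834-36388083 (Chrm2) and chr12:33957421-33957670 (Twist1).
Ebf1: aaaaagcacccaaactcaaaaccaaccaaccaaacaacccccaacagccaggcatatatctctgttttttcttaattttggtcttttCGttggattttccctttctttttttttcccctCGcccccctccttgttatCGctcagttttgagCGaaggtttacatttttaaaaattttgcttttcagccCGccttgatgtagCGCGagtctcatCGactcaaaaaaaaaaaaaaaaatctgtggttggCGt
Chrm2: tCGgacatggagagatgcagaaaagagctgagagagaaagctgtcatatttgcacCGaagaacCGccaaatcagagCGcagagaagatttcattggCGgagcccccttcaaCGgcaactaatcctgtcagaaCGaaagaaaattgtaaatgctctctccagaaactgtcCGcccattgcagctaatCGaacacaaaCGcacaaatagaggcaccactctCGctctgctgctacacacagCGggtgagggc
Twist1: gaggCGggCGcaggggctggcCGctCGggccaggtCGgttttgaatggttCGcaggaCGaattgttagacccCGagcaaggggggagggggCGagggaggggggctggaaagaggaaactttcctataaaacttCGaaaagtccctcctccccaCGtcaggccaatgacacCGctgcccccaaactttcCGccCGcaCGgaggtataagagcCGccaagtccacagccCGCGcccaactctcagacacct
These windows held 9 CG dinucleotides for Ebf1, 12 for Chrm2 and 18 for Twist1. The median was 6 over 32851 promoter windows of all genes, 18 over the 5989 windows of genes past the filter on low values described below, and 13 over the 270 windows of the genes called higher in the members and the genes of the rule. CTTTGAT, a core of TCF/LEF sites, was searched on both strands and occurred in 3.21% of all windows. It occurred in 6 of those 270 (2.22%), which came from 207 genes, the one of Prlr among them. Of the leading genes, the rule genes and Chrm2, 23 had windows, 31 in all, and none of these held it. The rest of that group, Rspo3 among them, had no window and were not searched. Matches of letters describe the windows only.

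The members held fewer transcripts than the other cells. Median UMIs per member were 4063 (KO mouse 1) and 4273 (KO mouse 2), against 10499 and 10617 in all other cells, and 1974 and 2007.5 genes were detected per member. Their mitochondrial share (medians 4.47% and 3.73%) was below that of the other cells (5.42% and 5.01%). In total they held 160130 and 251135 UMIs, so that 3 UMIs, the one-sided limit for a count of 0, correspond to 18.7 and 11.9 CPM, and the upper end of the two-sided interval used below lies at 23.04 and 14.7. CPM here is a gene's UMIs, summed over the members of a mouse, scaled to a common total of all their UMIs, with exact 95% Poisson intervals that cover counting error only. The UMIs count transcript ends and were not divided by length, so levels of different genes are not ranked against each other. Where the gene with the most UMIs of a list is named, this describes the counts only.

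Ebf1 (chromosome 11, 44617317 to 45008091) stood at 3553 CPM (3267 to 3858) in the members of KO mouse 1 and at 3930 (3689 to 4183) in those of KO mouse 2. Rspo3 (chromosome 10, 29452416 to 29535867) stood at 1836 and 2043 CPM, and Col3a1 at 868 and 804. All other cells held at most 1.27 CPM of any of the 3 genes, which is given by the rule. All 3 genes were detected in 30 of 33 and 53 of 56 members. The remaining members had Ebf1 with either Col3a1 (2 and 1 cells) or Rspo3 (1 and 2 cells), so every member held Ebf1, with medians of 15 and 17 UMIs per cell.

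The edges of the rule were sparsely filled. Only 1 member (KO mouse 2, 1472 UMIs) had a sum of 5 or 6, and no cell within the other limits had a sum of 3 or 4. Outside, 3 and 2 cells reached 5 UMIs through 1 gene alone, with Vcan at 2085 and 905 CPM. A further 5 and 8 cells met the limits on the 3 genes but held more than 20 UMIs of Krt14 and Krt5 (medians 94 and 172). These keratin-rich cells had medians of 12962 and 13825.5 UMIs and Vcan at 1842 and 1234 CPM, whereas no member had more than 9 UMIs of Krt14 and Krt5.

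Doublets were kept. Scrublet, which scores cells against simulated pairs, called 475 cells of KO mouse 2 (3.998%), 1 of them a member, but 2 cells of KO mouse 1 (0.0263%), so its automatic limit did not work there. Some members carried another type's transcripts. In KO mouse 1 a single member of 17260 UMIs held 960 UMIs of the keratinocyte list, 331 of Krt10 and 282 of Krt1 among them, which is 5.56% of its UMIs. The next highest share in any member was 0.855%. In KO mouse 2 a single member held 23 UMIs of the melanocyte list, and no other member had more than 2. Group sums most affected by these 2 cells are also given without them.

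The heat map of 28 genes in single members shows in which members each was detected. Vcan was detected in 30 of 33 and 55 of 56 members and Twist1 in 32 and 52, whereas Sox2 was found in 14 and 35 and Chrm2 in 8 and 12. The latter pair had far fewer UMIs in all, and at low counts a gene is missed in many cells. For Sox2 and Chrm2, detection therefore does not show how evenly they were spread. Vcan had medians of 14 and 16 UMIs per member. The members without it held 3643, 17260 (the keratin-rich one) and 2642 UMIs in KO mouse 1 and 3791 in KO mouse 2. They had 3 to 9 UMIs of Twist1 but at most 1 each of Rspo1, Serpine2, Cyp26b1 and Prrx2. The members were thus not uniform in these genes, which were picked after the values were seen, and this was not tested.

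**Figure D1:**
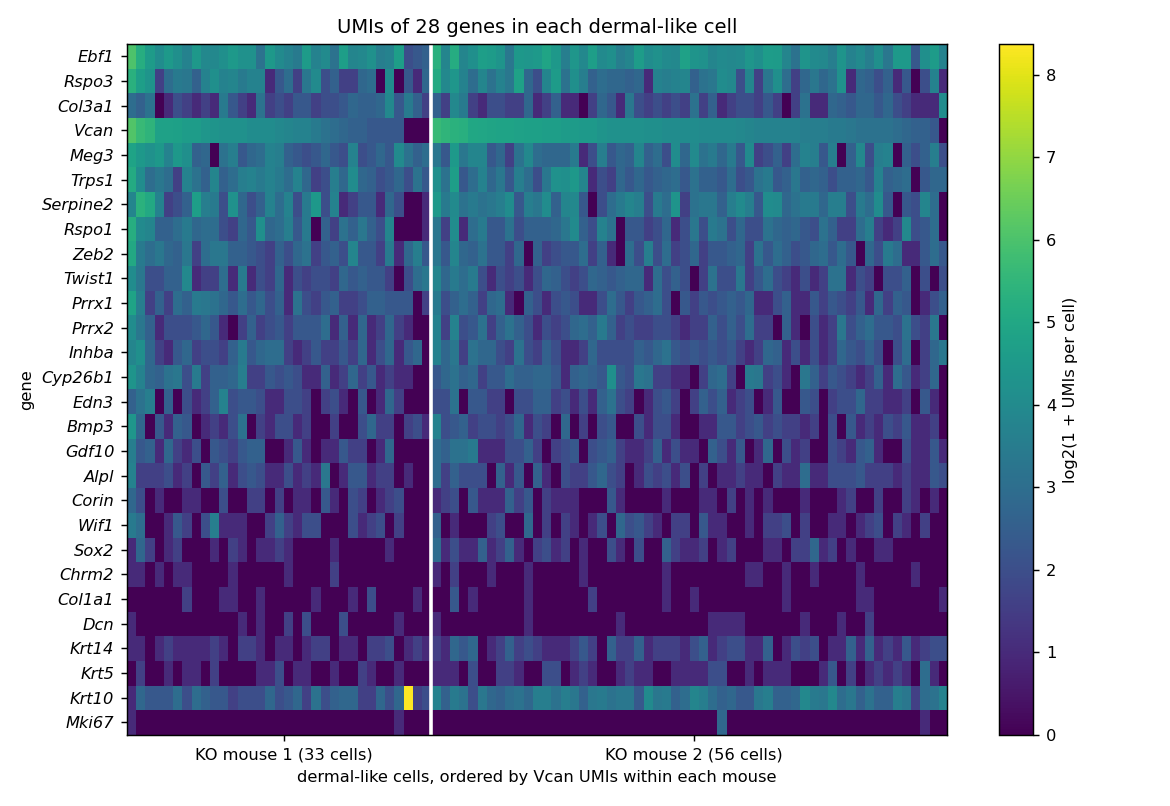
UMIs per cell, as log2(1 + UMIs), of 28 genes (rows) in the 33 members of KO mouse 1 and the 56 members of KO mouse 2 (columns, ordered by Vcan UMIs within each mouse). Ebf1, Vcan and Meg3 fill most columns, Sox2, Chrm2, Col1a1 and Dcn only some, and the single bright Krt10 cell of KO mouse 1 is the member with 331 Krt10 UMIs.

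The members were then set against all other cells of the same mouse. The log2 ratio of CPM, with 10 CPM added to both, was taken for 6080 genes with at least 20 UMIs in the members of both mice together or at least 20 CPM in the other cells. A gene was called where the ratio was at least 4-fold in the same direction in both mice. The contrast is that of the rule, so these calls describe the members and no test was made. In all 285 genes were called higher (4.69% of those past the filter) and 117 lower (1.92%). No gene was 4-fold higher in one mouse and 4-fold lower in the other. For 273 of the 285 the Poisson interval of the members lay above 4 times the level of the other cells in both mice. Of the 285, 239 passed the filter on low values only through the members, so counts over the genes that passed are not read as support. Over all 20475 genes with a UMI and with no filter, 310 were called higher (1.51%), and the median of the mean log2 ratio was -0.00373.

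Meg3 (chromosome 12, 109541001 to 109571726), an imprinted noncoding RNA, stood at 1880 CPM in KO mouse 1 and 1656 in KO mouse 2, with log2 ratios of 7.40 and 7.22, the highest of any gene outside the rule with at least 20 UMIs in each mouse. Twist1, a helix-loop-helix factor of the mesenchyme, stood at 924 and 880 CPM (log2 ratios 6.51 and 6.45). The homeobox genes Prrx1 (1099 and 765 CPM) and Prrx2 (731 and 892 CPM) had ratios between 6.13 and 6.73. All 4 genes were at or below 1.31 CPM in melanocyte-like cells, apart from Prrx2 at 2.88 and 4.02, and at or below 1.15 CPM in keratinocytes.

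The 25 genes that were highest by the smaller of their 2 ratios, from Meg3 down to Frem1 (5.10 and 4.996), fell into a few roles. Secreted signals and their partners were Rspo1, Inhba (the activin beta A subunit), Edn3 (endothelin 3), Bmp3, Gdf10 (a Bmp relative) and Daam2 (a formin of the Wnt pathway). Matrix genes were Vcan, Col23a1, Col6a3, Col6a1, Lamc3, Nid1, Frem1 and Plod2, which encodes a collagen-modifying lysyl hydroxylase. Serpine2 and Serpinf1 encode secreted serpins. Transcription regulators besides Twist1, Prrx1 and Prrx2 were Trps1, Zeb2 and Runx1t1. The others were Meg3, Cyp26b1, which degrades retinoic acid, and Alpl, the alkaline phosphatase used as a stain for dermal papilla. Vcan, which encodes the proteoglycan versican, stood at 3347 CPM (3070 to 3643) and 3954 (3712 to 4208), against 39.4 and 40.9 CPM in all other cells.

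**Figure D2:**
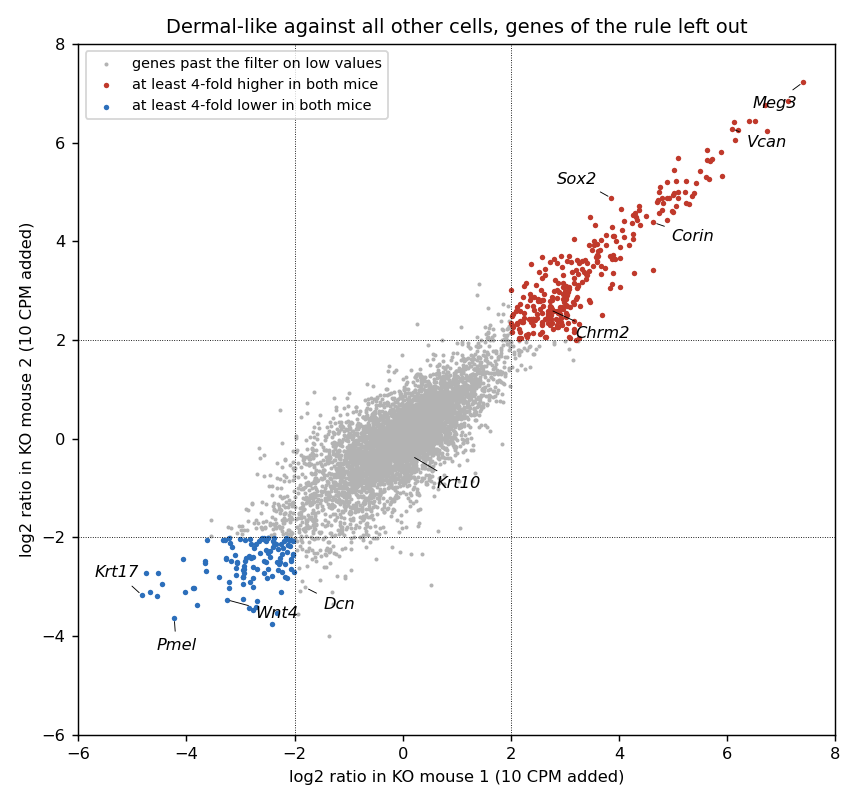
Log2 ratio of CPM (10 CPM added) of the members against all other cells in KO mouse 1 (x axis) and KO mouse 2 (y axis), 1 point per gene past the filter on low values, with the 285 genes called higher in red and the 117 called lower in blue. The points lie along the diagonal, Meg3 is at the upper end at 7.40 and 7.22, and Dcn (-1.80 and -3.01) is below the other cells.

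Genes of the dermal papilla and condensate had the largest share of genes called higher among the lists examined. Of the 32 genes of that list, of which Rspo3 belonged to the rule, 23 were called higher and none lower, and 25 were higher with no filter. The median log2 ratio over the list was 3.75, beside -0.00373 over all genes with a UMI. Every member had UMIs of at least 7 of the genes, with a median of 16 in both mice, but the members were not alike. Those without a Vcan UMI had 14 to 26 UMIs of the list in KO mouse 1 and 37 in KO mouse 2. The medians over all members were 52 and 54. None of those without Vcan had a UMI of Sox2 or Corin. The list without Rspo3 summed to 12446 and 13057 CPM, against 642 and 643 in all other cells, and with the 2 mixed members left out to 13838 and 13187. Of the 27 genes past the filter, 22 passed only through the members.

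Several list genes are known markers of the papilla. Corin, which encodes a membrane protease of the papilla, stood at 244 and 203 CPM, Alx4, a homeobox gene, at 312 and 303, and Alpl at 493 and 502. Hey2, a Notch target, stood at 299.8 and 291 CPM, Prdm1 at 237 and 239, and Sox18 at 56.2 and 47.8. None of Alx4, Corin or Sox18 exceeded 0.354 CPM in keratinocytes of either mouse. Crabp1, a retinoic acid binding protein gene, was counted at only 9 UMIs in each mouse, and Ednrb was not counted at all.

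Sox2, a transcription factor gene of the papilla of some hair types, was detected in some members and not in others. It stood at 144 CPM (91.1 to 216) in KO mouse 1 and 299 (235 to 374) in KO mouse 2, and these intervals cover counting error only. It was detected in 14 of 33 members (42.4%) and 35 of 56 (62.5%), with at most 6 and 7 UMIs in a cell, and in no melanocyte-like or Langerhans-like cell. With each cell thinned to 2000 UMIs the shares were 27.3% and 38.2%. A member without a Sox2 UMI may have missed it at this depth, so the split does not separate cells that use the gene from cells that do not. Of 24 genes compared between members with and without a Sox2 UMI, rule genes left out, 11 were higher beside Sox2 in both mice, 2 (Col1a1 and Col1a2) were lower in both, and 11 went opposite ways in the mice. With the 2 mixed members left out, both of which lacked Sox2, the numbers were 10, 2 (Col1a1 and Prdm1) and 12. Without those cells, Vcan stood at 4714 CPM in Sox2-detected members of KO mouse 1, against 2788 in the others, and at 4583 against 2863 in KO mouse 2. Hhip, which encodes an inhibitor of hedgehog signals, stood at 462 against 238 and at 307 against 199. Rspo1 was higher beside Sox2 in KO mouse 1 and lower in KO mouse 2 (2056 against 1191 and 1152 against 1396), as were Wif1 (616 against 336 and 275 against 340.3), Nog, Gdf10 and Chrm2. The split was made from the measured cells, and it was not tested.

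Fibrillar and matrix collagen genes were also raised, but not evenly. Of 17 genes, 9 were called higher and none lower: Col1a1, Col1a2, Col5a1, Col5a2, Col6a1, Col6a2, Col6a3, Col23a1 and Col26a1. Col1a2, a chain of type I collagen, stood at 537 and 657 CPM and was found in 31 and 53 members. Col1a1, the other chain, was counted at only 11 and 14 UMIs (68.7 and 55.7 CPM), in 8 and 10 members. It was at 0 in melanocyte-like and Langerhans-like cells.

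Other matrix genes were called in both directions against all other cells. Of 35 genes, Vcan, Fbn1, Bgn, Mfap2, Mfap4, Fbln2, Fbln5, Pcolce and Spon1 were called higher, and Fn1 and Postn, which encode fibronectin and periostin, lower. Dcn, the decorin gene and a common fibroblast marker, stood at 74.9 and 43.8 CPM in the members and was in 7 and 10 of them, whereas keratinocytes held 279 and 431 CPM. Lum, another fibroblast proteoglycan gene, had 10 and 6 UMIs. The basement membrane list divided likewise, with Col15a1, Lama2 and Nid1 called higher. Among those called lower were Col17a1 and Lamb3, which encode parts of the anchoring complex of basal keratinocytes. Against melanocyte-like or Langerhans-like cells alone, neither of these lists had a gene called lower.

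The further defining genes of the label were thus unequal. Pdgfra, the receptor gene of dermal fibroblasts, stood at 199.8 and 255 CPM, Twist2 at 43.7 and 35.8, and Twist1, Prrx1 and Col1a2 as above, whereas Dcn was lower than in the other cells and Lum was called in neither direction. Mesenchymal transcription factors counted 7 higher of 29 (Twist1, Prrx1, Prrx2, Tbx15, Zeb2, En1 and Runx2) and none lower. Their list held Ebf1, and Ebf2 was at 0 in both mice. Zeb2 was also present in melanocyte-like cells, at 282 and 269 CPM.

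Lists of other fibroblast subsets were examined too, and differences between them were not tested. In the list of upper (papillary) dermal fibroblasts 7 of 12 genes passed the filter. Of these 7, 4 passed only through the members, so the share called is not read as support. In all 5 were called higher (Col23a1, Nkd1, Nkd2, Lef1 and Pdgfra), while Dpp4 and Cd34 were at 0. In that of lower (reticular) fibroblasts only 3 of 12 genes passed the filter, none of them only through the members. The shares of the 2 lists are therefore not comparable. Of the 3 genes, 1, Cpxm1, was called higher (437 and 506 CPM). Ly6a, Mfap5, Pi16, Fmo1, Cxcl12 and Thbd were at 0. Of the 12 genes of dermal sheath and smooth muscle only 2 passed the filter, and 1 of them, Mef2c, was called higher. The call was lost against melanocyte-like or Langerhans-like cells alone, which held 166 and 170 and 268 and 425 CPM of Mef2c, against 281 and 271 in the members. Acta2, Myh11, Mylk, Lmod1 and Des were at 0.

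**Figure D3:**
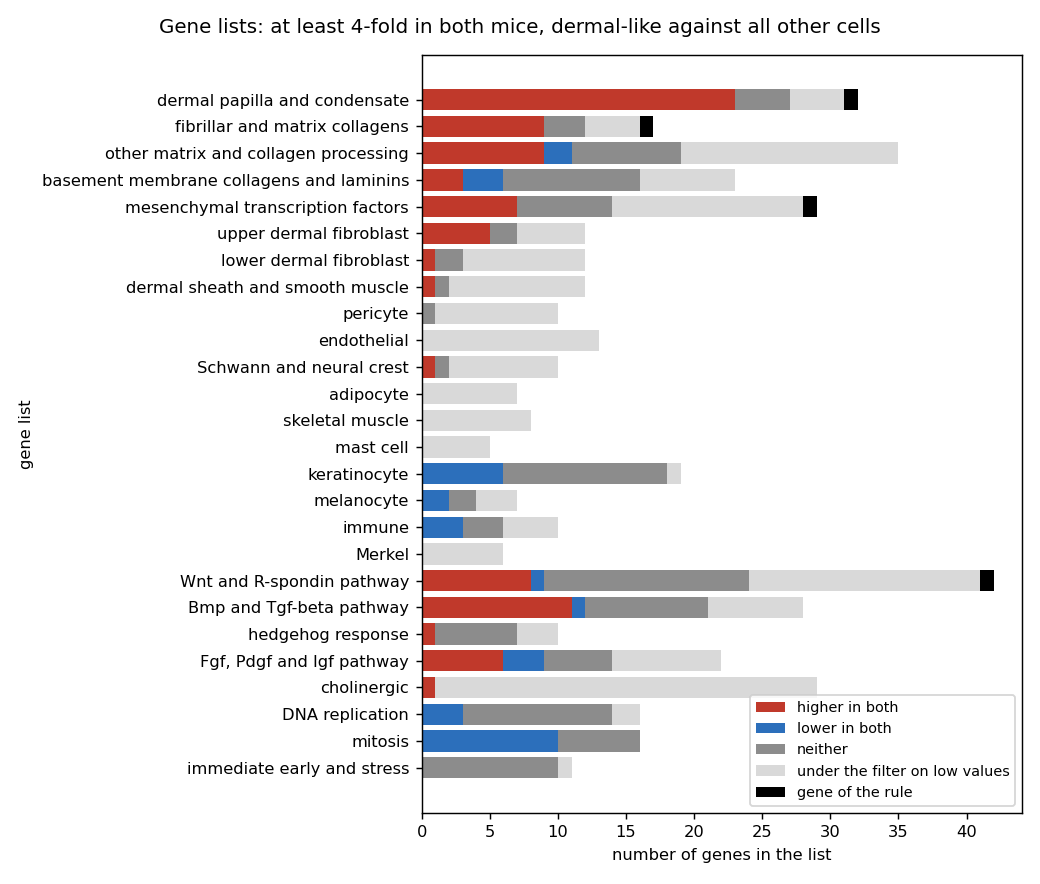
Number of genes in each of 26 gene lists (y axis) called higher (red), lower (blue) or in neither direction (dark grey), with genes under the filter on low values (light grey) and rule genes (black). The red bar is longest for the dermal papilla and condensate (23 of 32), and the blue one for mitosis (10 of 16).

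Signalling genes were examined by role, in lists that overlap with those above. Called genes also in the dermal papilla list were Rspo2, Lef1, Wif1, Notum, Bmp3, Bmp4, Nog, Inhba, Fgf7, Fgf10 and Hhip. Vcan, Hey1 and Hey2 of other lists were in it too, so the lists are not separate observations. In the Wnt and R-spondin list, 8 of 42 genes were called higher and 1 lower, with a median log2 ratio of -0.00 over the list. The ligands Rspo1 (1449 and 1215 CPM), Rspo2 (74.9 and 119 CPM) and Wnt5a (425 and 553 CPM) were among them. So were the secreted inhibitors Wif1 (425 and 299 CPM) and Notum (187 and 207 CPM), the feedback inhibitors Nkd1 and Nkd2, and Lef1, a transcription factor gene of the canonical pathway, at 600 and 685 CPM. Rspo4, Wnt2, Wnt2b, Wnt3a, Wnt7a, Wnt10b, Sfrp4 and Dkk1 were at 0. Wnt4, an epidermal ligand, was lower in the members (24.98 and 27.9 CPM against 359 and 384 in keratinocytes). The R-spondin receptor gene Lgr4 was at 125 and 67.7 CPM in members and 92.1 and 72.6 in keratinocytes, and Lgr6 at 0 and 3.98 against 52.6 and 50.2.

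Of 28 genes of Bmp and Tgf-beta signalling 11 were called higher and 1, Tgfbi, lower. Ligands among them were Bmp3 (550 and 518 CPM), Bmp4 (275 and 366 CPM) and Inhba (899 and 876 CPM). Nog, which encodes the Bmp antagonist noggin, stood at 144 and 83.6 CPM, and the binding proteins Fstl1, Ltbp1 and Bambi and the receptor Tgfbr1 were called too. The Bmp target genes Id1 (624 and 637 CPM), Id2 (499.6 and 462 CPM) and Id3 (731 and 633 CPM) were higher in the members by 2.83 to 4.01 on the log2 scale. Their levels in keratinocytes were 44.7 and 47.3, 11.3 and 9.96, and 79.9 and 75.1 CPM, but Langerhans-like cells held Id2 at 412 and 295. Against Langerhans-like cells alone 14 genes of the list were called higher and 2 lower.

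Of 22 genes of the Fgf, Pdgf and Igf pathways 6 were called higher and 3 lower. The ligands Fgf7 (137 and 115 CPM) and Fgf10 (56.2 and 59.7 CPM) were each at or below 0.785 CPM in every comparison class, and Fgfr1 stood at 1511 and 1481 CPM. Fgfr2, whose epithelial form receives Fgf7 and Fgf10, stood at 181 and 223 CPM in members and 131 and 126 in keratinocytes, which these counts cannot divide by isoform. Pdgfra, Igfbp3 and Igfbp4 were higher. Pdgfa, the ligand of Pdgfra, was lower in the members (56.2 and 67.7 against 536 and 508 CPM in keratinocytes), as were H19 and Igfbp2.

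Of 10 hedgehog response genes 7 passed the filter, and Hhip (312 and 263 CPM) was the only one called. Ptch1, the receptor and target gene of the pathway, stood at 481 and 593 CPM, with ratios of 1.31 and 1.62, and Gli1 at 74.9 and 51.8 CPM, with ratios of 1.25 and 0.82. Both were above the other cells in both mice but short of 4-fold.

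Edn3 (chromosome 2, 174760619 to 174784042) encodes a ligand for melanocytes, whose receptor gene is Ednrb. It stood at 593 CPM (479.99 to 725) in KO mouse 1 and 557 (469 to 658) in KO mouse 2, and no UMI of it was counted in 394 and 621 melanocyte-like or 137 and 172 Langerhans-like cells. Keratinocytes held 0.0919 and 0.19 CPM. Ednrb showed the converse, with 475 and 522 CPM in melanocyte-like cells and none in the members.

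**Figure D4:**
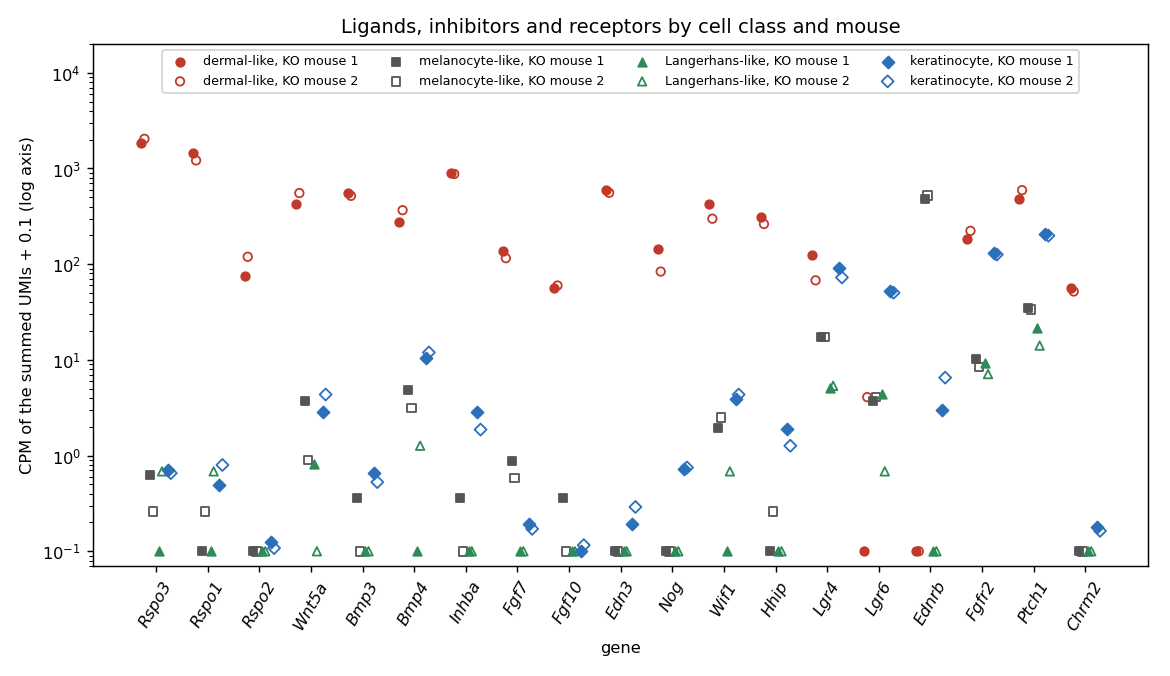
CPM of the summed UMIs (plus 0.1, log axis) of ligands, inhibitors and receptors in members, melanocyte-like cells, Langerhans-like cells and keratinocytes, 1 filled point for KO mouse 1 and 1 open point for KO mouse 2. Rspo1, Rspo2, Bmp3, Inhba, Fgf7, Fgf10, Edn3, Nog and Chrm2 stand far higher in the members than elsewhere, whereas Ednrb is highest in melanocyte-like cells and Lgr6 in keratinocytes.

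Among the cholinergic genes, Chrm2 (chromosome 6, 36388084 to 36528414) was present in the members at low counts. It was counted at 9 UMIs in 8 of 33 members of KO mouse 1 (56.2 CPM, interval 25.7 to 107) and at 13 UMIs in 12 of 56 of KO mouse 2 (51.8 CPM, 27.6 to 88.5). The intervals of the mice overlapped. No UMI was counted in melanocyte-like or Langerhans-like cells of either mouse, which had medians of 8382.5 to 9481 UMIs, and keratinocytes held 0.0788 and 0.0634 CPM (6 and 8 UMIs). The log2 ratios against all other cells were 2.72 and 2.62. With cells thinned to 2000 UMIs it was detected in 6.06% and 9.09% of members, so that its absence from a member is not informative at this depth.

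The other cholinergic genes were at or near 0. Of 29 genes, 25 had no UMI in the members of either mouse, the other muscarinic receptors Chrm1, Chrm3, Chrm4 and Chrm5 among them, as well as Chat, which makes acetylcholine, and Ache and Bche, which break it down. In keratinocytes the whole list summed to only 3.74 and 3.62 CPM, below the limit for a count of 0 in the members (18.7 and 11.9 CPM). A count of 0 therefore does not show that the members held less of these genes than keratinocytes. Chrm3, the deleted gene, had 13 and 19 UMIs over all cells that passed. Slc5a7, the gene of the choline transporter, was counted at 3 and 4 UMIs, near the limit of a count of 0, Lynx1 at 2 and 2 and Chrnb4 at 0 and 1.

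Mitosis genes were low in the members. Of 16 mitosis genes 10 were called lower and none higher, with a median log2 ratio of -2.43 over the list, and the list summed to 87.4 and 191 CPM, against 1537 and 1480.2 in all other cells. Mki67 was detected in 2 and 2 members and Top2a in 0 and 3. Of 16 DNA replication genes 3 were called lower (Rrm2, Tyms and Uhrf1) and none higher. Only 1 mitosis gene was called lower with up to 50 UMIs of Krt14 and Krt5 allowed in a member or against Langerhans-like cells alone, and 0 with no limit on these UMIs. For DNA replication the number was 1 with up to 50 UMIs or no limit and 0 against Langerhans-like cells alone.

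Among the 10 genes with the lowest ratios were Pmel, a melanosome gene, the keratin gene Krt17, and Col17a1, which anchors basal keratinocytes. Nfib, Irx4 and Lmo1 encode transcription regulators, Ucp2 a mitochondrial carrier, and Top2a and Cenpf proteins of dividing cells, and Wnt4 was described above. Krt17 stood at 68.7 and 199 CPM in members, against 2548 and 2098 in keratinocytes. The log2 ratios of the 10 genes lay between -4.83 and -2.96. With the 3 UMI limit at 18.7 and 11.9 CPM, the size of these ratios is uncertain.

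Markers of other cell types were summed over the members. Of the 7 adipocyte and 5 mast cell genes none had a UMI. Of 13 endothelial genes none passed the filter on low values, so none could be called, and Kdr was higher with no filter. Cdh5, Tek, Tie1, Emcn, Vwf and Esam were at 0, and the list summed to 169 and 75.7 CPM, led by Kdr with 7 and 8 UMIs. Of 10 pericyte genes only 1 passed the filter, and it was not called. Rgs5, Abcc9, Higd1b and Vtn were at 0, and the sum of 119 and 87.6 CPM was led by Notch3. Of 10 Schwann and neural crest genes only 2 passed the filter, and 1 of them, S100b, was called higher (7 and 28 UMIs). Foxd3, Cdh19, Mbp and Gfra3 were at 0. No skeletal muscle or Merkel cell gene passed the filter, and these lists summed to 18.7 and 7.96 CPM and to 12.5 and 0. Immune genes summed to 18.7 and 15.9 CPM, with 3 of 10 called lower and Ptprc at 0, but none lower against keratinocytes or melanocyte-like cells alone.

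Keratin transcripts were present in every member, with Krt10 detected in all 89. Of 19 keratinocyte genes 6 were called lower (Krt15, Krt17, Krt79, Epcam, Trp63 and Col17a1) and none higher, and Krt10 had the most UMIs. With the mixed members left out 11 were lower, with no limit on Krt14 and Krt5 only 1, and 1 and 0 against melanocyte-like and Langerhans-like cells alone. The list, without Krt14 and Krt5, summed to 8137 and 4607 CPM in the members and, with the mixed members left out, to 2401 and 4613. It summed to 1847 and 4009 CPM in melanocyte-like cells and to 4051 and 2659 in Langerhans-like cells. Krt14 stood at 231 and 518 CPM in the members, 143 and 240 in melanocyte-like cells and 137 and 234 in Langerhans-like cells. Keratinocytes held 7001 and 7613 CPM, a contrast given by the limits on Krt14 and Krt5 UMIs. Krt10 in the members, at 2898 and 1792 CPM, had 331 of its 464 UMIs in 1 cell of KO mouse 1, and stood at 931 and 1776 without the mixed members. The part of free RNA in these levels was not tested. Melanocyte genes summed to 18.7 and 119 CPM, or 3 and 7 UMIs once the mixed members were left out, and Pmel and Mlana of the 7 genes were called lower, but none against keratinocytes or Langerhans-like cells alone, with list sums of 69.0 and 128 CPM in keratinocytes.

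**Figure D5:**
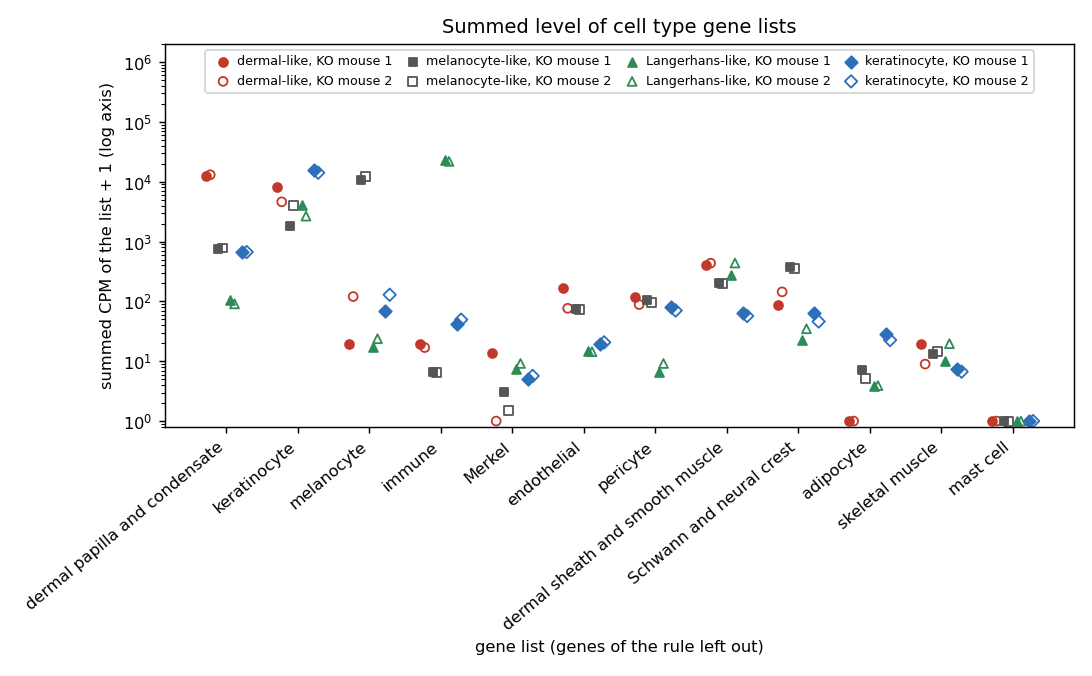
Summed CPM (plus 1, log axis) of 12 cell type gene lists, rule genes left out, in members, melanocyte-like cells, Langerhans-like cells and keratinocytes, 1 filled point for KO mouse 1 and 1 open point for KO mouse 2. The dermal papilla list is highest in the members at 12446 and 13057, and their keratinocyte list falls near that of the melanocyte-like and Langerhans-like cells apart from KO mouse 1, where 1 mixed member raises it to 8137.

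Immediate early and stress genes, which respond to handling, differed between the mice. The 11 genes summed to 3941 CPM in the members of KO mouse 1 and 1426 in those of KO mouse 2, and to 4277 and 2874 in all other cells. Without the mixed members the sums were 3654 and 1445. Fos stood at 350 and 108 CPM in the members, and at 245 and 106 without the mixed members, and Jun at 1024 and 394. None of the 11 genes was called in either direction.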

How the data were processed

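Epidermis of 2 Chrm3 KO mice was profiled, 1 library per mouse. Per the labels and the submitters' processing notes, the authors ran Cell Ranger 3.0.2 with mm10, and the deposited values are raw UMI counts of each gene in each barcode, before their filter on cells. The study's methods name 10x chemistry version 3.1 and the labels version 1. The deposited counts hold 27998 genes, of which 27645 (98.7%) were found in GENCODE M21 (GRCm38), the source of positions.

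Members, comparison classes and gene lists were chosen with earlier results of these data known. Comparison classes took the same form as the rule with Pmel, Dct and Mlana (melanocyte-like) or Cd74, Tyrobp and Ctss (Langerhans-like). Keratinocytes were cells with more than 20 UMIs of Krt14 plus Krt5. UMIs were summed per mouse and class and divided by the class total. Named genes are the rule genes and the 25 highest and 10 lowest ratios (at least 20 UMIs in the members of each mouse, or 100 CPM in the other cells for the lowest). The genes with the most UMIs in each list are named too, as is any list gene at 0 that defines another cell type. A few genes of the lists are not reported here. List genes named because they were called were chosen after their values were seen.

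Because the members were chosen in the same cells, and the mice form 1 group, no p-value was computed. Alternatives changed the rule, the added CPM, the filter, the scaling and the comparison class, and left out each mouse. Scrublet was run through scanpy 1.11.5, sums with numpy 2.4.6 and intervals with scipy 1.17.1 in Python 3.11.15.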

Additional observations from a re-analysis of the deposited data

Results flagged for a closer look

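The filter on cells removed 3209 and 3986 barcodes, and 6 of these in KO mouse 1 and 11 in KO mouse 2 met the limits on Col3a1, Ebf1, Rspo3, Krt14 and Krt5. They were noticed because the comparisons did not use them, and there were no control samples to set them against. The 6 barcodes of KO mouse 1 had a median of 663 UMIs, 5 of them had under 900 genes and 1 had 10% or more mitochondrial UMIs. The 11 of KO mouse 2 had a median of 1226 UMIs, 9 had under 900 genes and 6 had 10% or more mitochondrial UMIs. Levels of single genes in them rest on few UMIs and are not given.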

How the results depend on the processing

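The number of genes called higher in the members was 285 and stayed between 249 and 351 under the alternatives, except against Langerhans-like cells alone, where it was 504. These were not all the same genes: 215 of the 285 were also called against melanocyte-like cells alone and 244 against Langerhans-like cells alone. The number called lower, 117, moved more. It was 49 with up to 50 UMIs of Krt14 and Krt5 allowed, 17 with no limit on them, 189 under 5% mitochondrial UMIs, 298 with 1 CPM added and 340 against Langerhans-like cells alone. Of the 117, only 23 were among the 147 called lower against melanocyte-like cells alone and 16 among the 340 against Langerhans-like cells alone. Leaving out 1 mouse gave 191 to 254 genes lower and 315 to 325 higher, since a gene then had to pass in 1 mouse only. The mean number of members per mouse was 44.5, between 40 and 51 under the other rules and 33 to 56 with 1 mouse left out. Genes of the dermal papilla list called higher numbered 22 to 26 under every alternative, against 23. Mitosis genes called lower numbered 10, but 1 with up to 50 keratin UMIs allowed, 0 with no limit and 1 against Langerhans-like cells alone. Keratinocyte genes called lower numbered 6, but 11 with the mixed members left out, with the mean of CPM per cell or under 5% mitochondrial UMIs, 1 with no keratin limit or against melanocyte-like cells alone, and 0 against Langerhans-like cells alone. The genes called lower in the basement membrane list (3), the Fgf, Pdgf and Igf list (3) and the Wnt list (1) numbered 0 with no keratin limit and against melanocyte-like or Langerhans-like cells alone. In the list of other matrix genes (2) the number was 0 against either class and 1 with no keratin limit, and Tgfbi was the 1 gene of the Bmp and Tgf-beta list, where 0 were lower with no keratin limit, under 5% mitochondrial UMIs or against melanocyte-like cells alone. When all 3 rule genes had to be detected, Chrm2 fell below the filter of 20 UMIs in the members and so could not be called. Without the 2 mixed members, an alternative chosen after seeing the data, 295 genes were higher and 161 lower. Without the cells with the 5% highest doublet scores, also chosen after seeing the data, 286 were higher and 134 lower. Each ratio was taken within a mouse. No paired analysis was possible because no result comes from a test, so there was no fit to which a replicate block could be added. The 160130 and 251135 UMIs of the members limit what can be seen of low genes, above all of genes lower in the members.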

Other observations

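Further groups, put together after the values had been seen, also held genes called higher in the members. Over all genes the share called higher was 4.69% past the filter and 1.51% with no filter. In each group 2 to 6 genes passed the filter only through the members, so the counts are not read as support. Of the hormone receptor genes, Thrb, Prlr (456 and 685 CPM), which encodes the prolactin receptor, and Pth1r (199.8 and 227 CPM) were called higher and Vdr lower. Esr1, Esr2 and Pgr were at 0. Among 14 imprinted genes, Cdkn1c (169 and 147 CPM), Ndn and Plagl1 were called higher beside Meg3, and H19 lower (6.24 and 19.9 CPM, against 197 and 229 in keratinocytes). Among 18 axon guidance genes Robo2 (343 and 311 CPM), Draxin, Ntng1 and Epha7 were called higher and none lower.

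The transcription factor genes Zic1 (312 and 235 CPM), Zic4 (219 and 219.01 CPM), Shox2, Meis1 and Sox11 were also called higher. Of 12 Notch genes, the ligand genes Dll1 and Jag1 and the target genes Hes5, Hey1 and Hey2 were higher and the ligand gene Jag2 lower. Of 7 endothelin and Kit genes, Edn3 and the receptor gene Ednra (37.5 and 59.7 CPM) were higher. Of 41 Hox genes, which mark position along the body, 8 passed the filter, 3 of them only through the members. Hoxc8 (425 and 426 CPM), Hoxc9 (106 and 235 CPM) and Hoxa9 (68.7 and 147 CPM) were higher and 12 were at 0 in the members. At 3 of 41, this count is not read as a result about the Hox genes.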
